A study of Canis lupus familiaris with 18 samples.

Results

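The PDGF receptors and ligands are the genes PDGFRA, PDGFRB, PDGFA, PDGFB, PDGFC and PDGFD. They were taken by symbol from the deposited counts, where each has 1 row, and all 6 are among the 29993 genes listed and among the 16495 genes that passed the filter on low counts of the main test. RNASeq was performed on formalin-fixed, paraffin-embedded (FFPE) tissue of canine high-grade oligodendroglioma (HGO), a malignant glial brain tumor, surgically removed from the forebrain. By their labels, 11 of the 18 libraries come from French bulldogs, 4 from boxers and 3 from Boston terriers, breeds with a raised risk of this tumor; boxers and Boston terriers form the comparison group. The groups differ by breed only in the labels; no treatment is given there, and age, sex and lobe were not used here. The comparison asks whether the tumors of French bulldogs differ from those of boxers and Boston terriers.

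PDGFs are secreted growth factors that act in pairs of chains on a pair of receptor tyrosine kinases at the cell surface. PDGFRA, the alpha receptor, marks oligodendrocyte progenitor cells, keeps them dividing, and is often amplified or mutated in gliomas. PDGFRB, the beta receptor, is the receptor of pericytes and vascular smooth muscle cells, which together are called mural cells. The chain encoded by PDGFA binds the alpha receptor only, that of PDGFB binds both, and the chains of PDGFC and PDGFD are secreted with an extra domain that a protease has to cut off before they can bind, that of PDGFC mainly to the alpha receptor and that of PDGFD to the beta receptor.

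The libraries held 8212452 to 13169880 counts on genes. Levels are given as counts scaled to the library size (CPM), normalized with TMM, and 3 counts, the smallest level taken as detectable, equalled 0.223 to 0.351 CPM. This covers counting error only. Gene lengths were not used, so CPM are compared between libraries for the same gene, and no gene is called higher than another. French bulldogs 2 and 8 carry library names with the same case number, and their log2 CPM had the highest correlation of all 153 pairs of libraries (r = 0.981, against at most 0.946 for any other pair), although their counts differed by more than sampling noise. The 11 French bulldog libraries thus carry 10 case numbers, while the authors counted 11 dogs. Whether the pair is 1 dog was not settled. The correlations below count dogs by case number and so take it as 1. The pair was kept as 2 libraries in the tests, the SDs and the counts below, where n counts libraries, so p-values may be too small if they are 1 dog, and it was averaged in the correlations. With the pair summed, none of the 6 genes was called either. French bulldog 6 goes against its label. OLIG2 and SOX10, which define the oligodendrocyte lineage, had 0 and 2 counts in it against at least 1137 and 1986 in every other library, all 12 oligodendrocyte lineage markers were at their lowest there, and 13 of 16 macrophage and microglia markers were at their highest. Results are therefore also given without French bulldog 6.

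PDGFRA was the most variable of the 6 genes. In French bulldogs it ranged from 42.3 to 4975 CPM with a median of 1336. The 4 boxers had 386, 548, 760 and 835 CPM, and the 3 Boston terriers had 1396, 1625 and 1677 CPM. French bulldogs 2 and 8 were far above all other libraries, with 4963 and 4975 CPM (44491 and 48876 counts), where the next highest was French bulldog 5 with 1857 CPM. French bulldogs 1, 9 and 11 were far below, with 270.1, 163 and 206 CPM, and the lowest value was that of French bulldog 6. All 7 comparison libraries lay between these extremes, so that 4 French bulldogs were above the whole comparison group, 4 below it and 3 within it. The Boston terriers did not overlap with the boxers.

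PDGFRB lay below the range of the comparison group in 6 of 11 French bulldogs. In this breed it ranged from 21.2 to 166 CPM with a median of 44.2. The boxers had 100.1, 118, 136 and 147 CPM, and the Boston terriers had 67.7, 84.5 and 98.4 CPM. The French bulldogs fell into a lower set of 6 libraries, from 21.2 to 44.2 CPM, all below the lowest comparison library, and a higher set of 5, from 83.6 to 166 CPM, within or above the comparison range. French bulldogs 2 and 8, the highest for PDGFRA, were the lowest for PDGFRB, with 23.2 and 21.2 CPM. All 4 boxers were above all 3 Boston terriers, the reverse of PDGFRA.

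PDGFA, made by neurons and astrocytes in the normal brain, ranged from 4.37 to 32.0 CPM in French bulldogs with a median of 12.5. The boxers had 17.6, 17.6, 20.8 and 26.2 CPM, and the Boston terriers had 7.2, 9.37 and 14.0 CPM. The boxers were again above all Boston terriers, while the French bulldogs spread over and past both breeds. PDGFB, made by endothelial cells, which recruit pericytes with it, ranged from 3.75 to 40.6 CPM in French bulldogs with a median of 9.76. The boxers had 11, 11.3, 26.6 and 31.6 CPM, and the Boston terriers had 8.7, 14.3 and 24.1 CPM. French bulldogs 3 and 11 were the highest of all 18 libraries with 40.6 and 40.5 CPM, and the 3 groups overlapped.

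PDGFC ranged from 14.8 to 102 CPM in French bulldogs with a median of 46.2. The boxers had 37.7, 41.9, 45.5 and 47.8 CPM, and the Boston terriers had 42.1, 47.0 and 98.3 CPM. The 4 boxers were close together, whereas French bulldogs 4, 5 and 6 and Boston terrier 2 had 85.3, 100.7, 102 and 98.3 CPM and stood above all other libraries, which had at most 55.2 CPM. PDGFD had the fewest counts, 12 to 222 per library. It ranged from 1.41 to 22 CPM in French bulldogs with a median of 10.2. The boxers had 4.0, 4.51, 7.04 and 7.06 CPM, and the Boston terriers had 1.69, 4.06 and 8.7 CPM. Of the French bulldogs, 6 were above all comparison libraries and 1 was below all of them. The 3 lowest libraries for PDGFD, French bulldogs 4 and 5 and Boston terrier 2, were among the 4 highest for PDGFC. The RefSeq annotation of another dog assembly places other genes over part of PDGFB and PDGFD. Whether the annotation used for counting does was not examined, and whether strand was used is not stated, so reads of overlapping genes may not be told apart there.

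**Figure D1:**
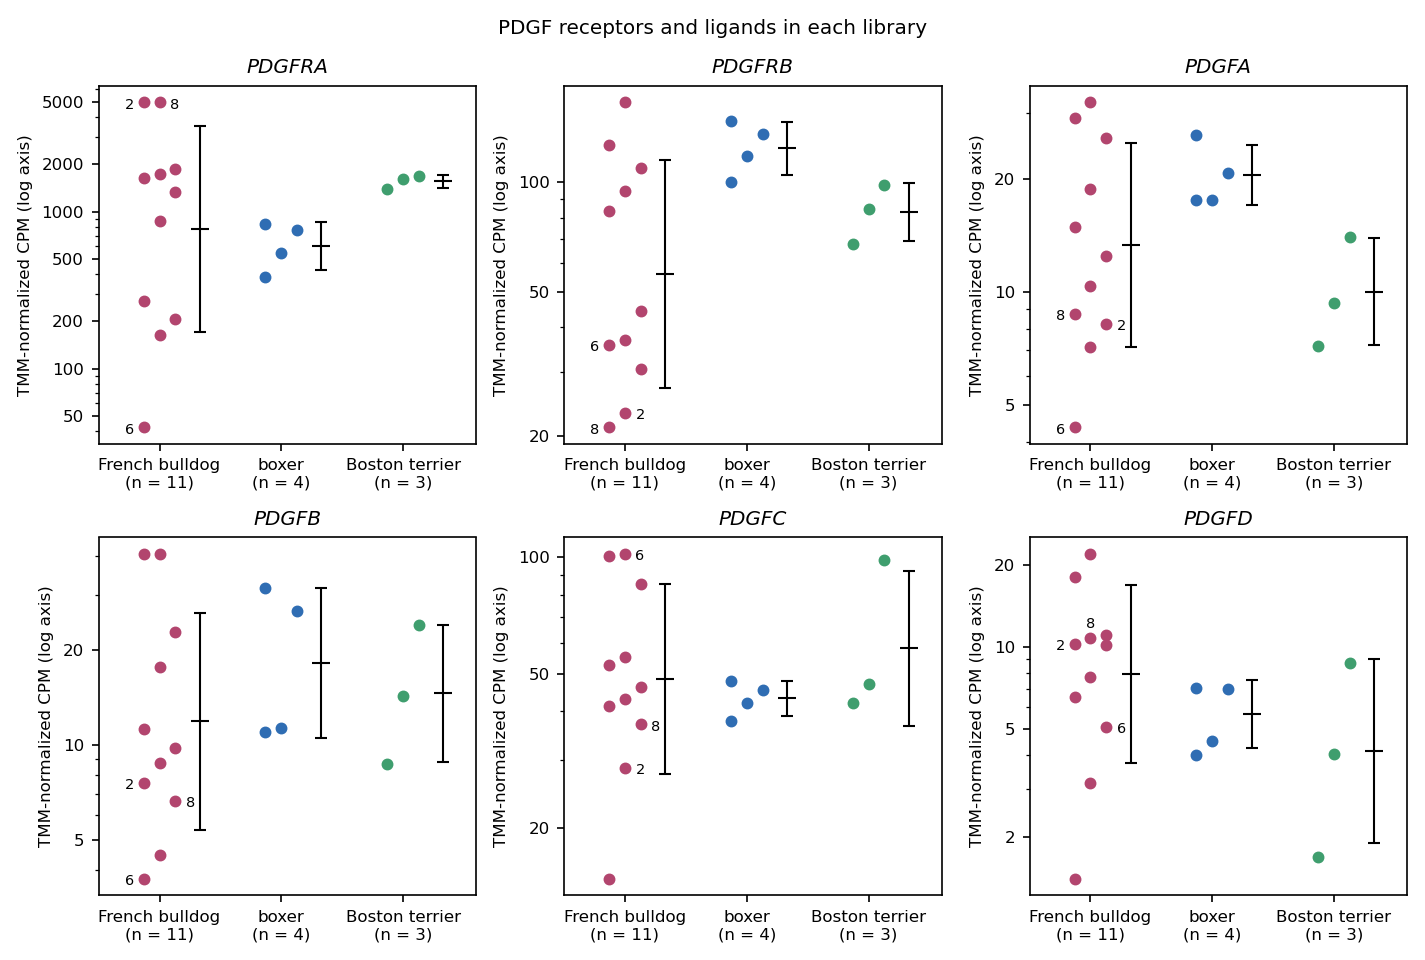
Level of each PDGF gene in the 18 libraries, as TMM-normalized CPM on a log axis, by breed. Each point is a library, the bar shows the mean ± SD of log2 CPM, and the numbers mark French bulldogs 2, 6 and 8; for PDGFRA libraries 2 and 8 sit at 4963 and 4975 CPM and library 6 at 42.3 CPM, while the boxers and Boston terriers lie between 386 and 1677 CPM.

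The spread was set beside that of all genes tested. Over the 18 libraries, the SD of log2 CPM was 1.75 for PDGFRA, larger than that of 93.4% of the genes tested, and the median gene had an SD of 0.65. It was 0.95 for PDGFRB, 1.01 for PDGFB and 1.00 for PDGFD, which 68.5%, 71.5% and 71.3% of the genes tested did not reach. PDGFA, with an SD of 0.80, and PDGFC, with 0.68, lay nearer the median of all genes tested, above 59.8% and 52.5% of them. Without French bulldog 6 the SD of PDGFRA fell to 1.43, still above 93.4% of the genes. Its place among all genes tested was thus the same with and without the library at the lowest value. The SD depends on level, so each gene was also ranked among the genes in its quartile of mean log2 CPM. There PDGFRA was above 94.5%, PDGFRB above 83.6% and PDGFC above 72.9%. PDGFB was above 69.7%, PDGFD above 69.4% and PDGFA above 57%. Without French bulldog 6 these shares were 99%, 94%, 82.4%, 78.5%, 82.7% and 62.1%, in the same order.

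Each of the 6 genes had a larger SD in French bulldogs than in boxers and Boston terriers. The SD was 2.18 against 0.82 for PDGFRA and 1.04 against 0.39 for PDGFRB. Among the ligands it was 0.90 against 0.64 for PDGFA, 1.15 against 0.72 for PDGFB, 0.82 against 0.46 for PDGFC and 1.08 against 0.75 for PDGFD. Most genes did the same: 81.5% of all genes tested, and 71.5% without French bulldog 6, had a larger SD in French bulldogs, so this direction was not particular to the PDGF genes. The difference in spread was not tested.

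**Figure D2:**
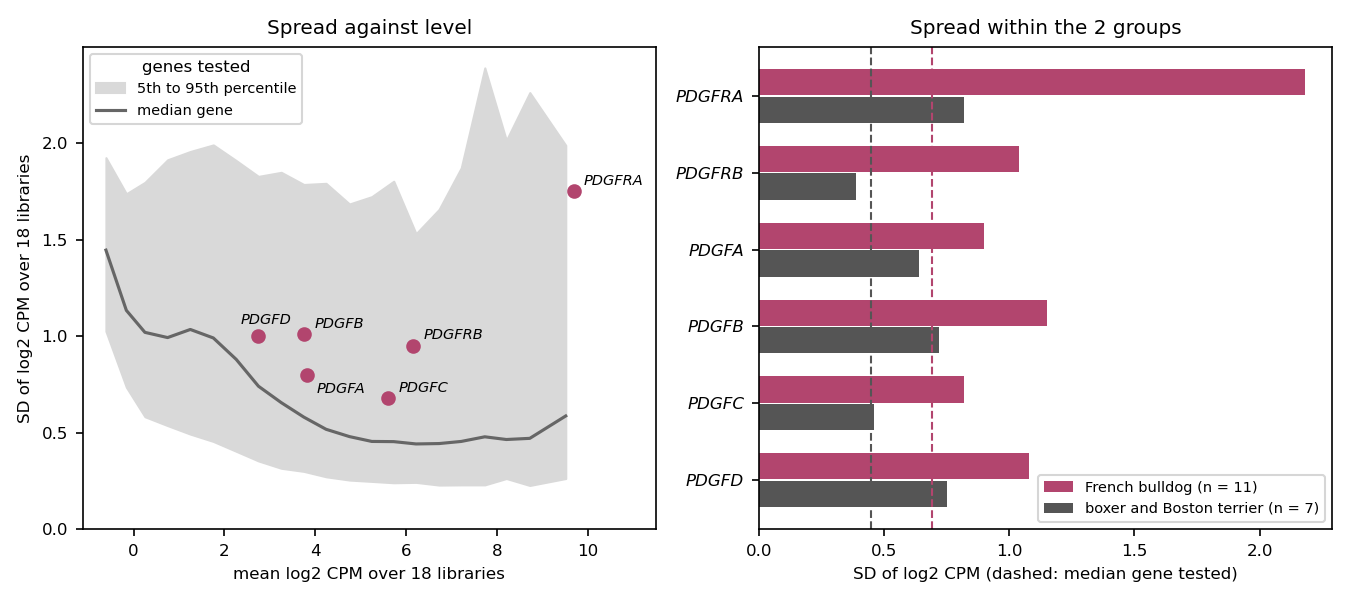
Left, SD against mean of log2 CPM over 18 libraries for the 6 PDGF genes (points), with the median (line) and the 5th to 95th percentile (grey) of the genes tested at the same level. Right, SD of log2 CPM in the 11 French bulldogs and the 7 libraries of the comparison group, where dashed lines mark the median gene tested, at 0.69 and 0.45; every PDGF gene but PDGFRB is above the median gene in both groups.

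None of the 6 genes passed the threshold of 0.05 on the adjusted p between French bulldogs and the comparison group in edgeR's quasi-likelihood test with Benjamini-Hochberg adjustment over 16495 genes. The test called 1 gene in all, 0.00606% of those tested. At an unadjusted p under 0.05 it also listed none of the 6, where 10.6% of all genes tested passed. DESeq2 called 0.278% of its genes and none of the 6, with 1 of them, PDGFD, at an unadjusted p under 0.05, which 12.1% of its genes reached. No gene of the 6 separated the groups without overlap, which 0.0546% of the genes tested did.

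Of the receptors, PDGFRA had a mean of 1642 ± 1777 CPM (SD, n = 11) in French bulldogs and 1033 ± 527 CPM (SD, n = 7) in the comparison group. Its log2 fold change was 0.67 ± 0.71 (SE), with a 95% interval of -0.83 to 2.17 and an adjusted p of 0.764. The direction rested on French bulldogs 2 and 8: the log2 fold change was 0.35 with their counts summed as 1 dog and -0.20 (adjusted p = 0.951) without both, and limma-voom, which averages log values, gave -0.23 with all libraries. PDGFRB had a mean of 70.3 ± 48.9 CPM (SD, n = 11) in French bulldogs and 107 ± 28.1 CPM (SD, n = 7) in the comparison group. Its log2 fold change was -0.61 ± 0.38 (SE), with an interval of -1.41 to 0.19 and an adjusted p of 0.570, and it was negative in every one of 33 alternative fits, from -0.89 to -0.41, although none reached the threshold (adjusted p from 0.415 to 0.939) and 3 had an unadjusted p under 0.05.

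Among the ligands, PDGFD had the smallest p. It had a mean of 9.66 ± 6.08 CPM (SD, n = 11) in French bulldogs and 5.29 ± 2.4 CPM (SD, n = 7) in the comparison group, and 9 of 11 French bulldogs were above the median of the comparison group. Its log2 fold change was 0.87 ± 0.44 (SE), with an interval of -0.05 to 1.78 and an adjusted p of 0.491 (0.0627 unadjusted). It was positive in each of the 33 alternative fits, from 0.47 to 1.03, with adjusted p from 0.379 to 0.939, and 5 of them had an unadjusted p under 0.05. PDGFA (-0.04, interval -0.82 to 0.74), PDGFB (-0.21, -1.19 to 0.78) and PDGFC (0.10, -0.57 to 0.77) had log2 fold changes near 0, with adjusted p of 0.982, 0.914 and 0.942.

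In the fit with the 3 breeds apart, over 17934 genes, 0 of the 6 genes passed. The fit called 1 gene (0.00558%) for any difference, 0 (0%) for French bulldogs against boxers, 1 (0.00558%) for French bulldogs against Boston terriers and 0 (0%) for boxers against Boston terriers by edgeR, with 1013, 1481, 689 and 381 genes, and none of the 6, at an unadjusted p under 0.05. PDGFRA was 1.38 ± 0.91 (SE) higher in French bulldogs than in boxers on the log2 scale (interval -0.53 to 3.29, adjusted p = 0.679) and 0.07 ± 0.94 higher than in Boston terriers (interval -1.90 to 2.04, adjusted p = 0.999). PDGFRB had a log2 fold change of -0.83 ± 0.45 against boxers (adjusted p = 0.628) and -0.25 ± 0.51 against Boston terriers (adjusted p = 0.993). These contrasts share the French bulldog libraries.

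Boxers and Boston terriers did not overlap for PDGFRA, PDGFRB or PDGFA, as for 1300 of the 17934 genes (7.25%). With 4 and 3 libraries these differences did not pass the test. The log2 fold change of boxers minus Boston terriers was -1.31 ± 1.09 (SE) for PDGFRA, 0.58 ± 0.62 for PDGFRB and 1.01 ± 0.57 for PDGFA, each with an adjusted p of 1. PDGFB, PDGFC and PDGFD overlapped between these breeds, with log2 fold changes of 0.35 ± 0.76, -0.53 ± 0.50 and 0.23 ± 0.69. The order of the breeds by mean CPM was therefore not settled for any of the 6 genes.

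**Figure D3:**
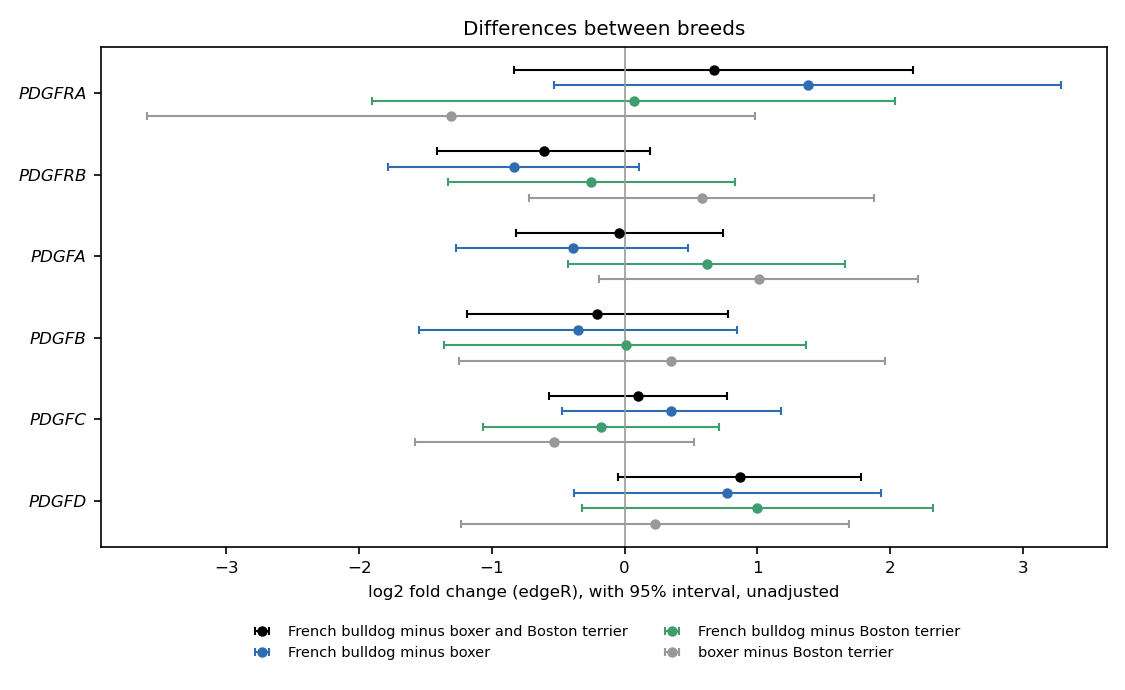
Log2 fold change from edgeR for each PDGF gene in 4 contrasts between breeds, with unadjusted 95% intervals (lines). All 24 intervals cross 0; in each contrast that of PDGFRA is the widest, and the interval of PDGFD for French bulldogs against the comparison group starts at -0.05.

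The PDGF genes differed in the cell type markers they followed across tumors. Correlations were computed over 16 dogs (French bulldog 6 left out, 2 and 8 averaged) between the log2 CPM of a gene and the score of a marker list, the mean z-score of the log2 CPM of its genes. There were 54 relations, of which 14 had an adjusted p under 0.05 by a two-sided permutation test. For these 14, between 0.0182% and 4.88% of all genes tested had an r with the same list at least as far from 0 in the same direction. The share was highest for PDGFRA with proliferation (4.88%) and astrocytes (3.46%) and for PDGFRB (4.15%) and PDGFB (3.7%) with macrophages and microglia. The labels name no batch, so values were computed within the French bulldog dogs and within the comparison dogs. The latter pool 4 boxers and 3 Boston terriers, too few for values of their own, so that differences between these breeds enter their r. In bulk tissue, fewer cells of a type and less RNA per cell cannot be told apart.

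PDGFRA rose with the oligodendrocyte lineage list, which holds OLIG2, SOX10 and CSPG4 among 12 genes (r = 0.72, permutation p = 0.0013, adjusted p = 0.010; rho = 0.65, p = 0.0078). The relation had r = 0.83 within the 9 French bulldog dogs and 0.62 within the 7 comparison dogs, but r was 0.41 without the 2 dogs farthest from the median of the list, so much of it rested on them. PDGFRA also rose with the proliferation list (r = 0.61, permutation p = 0.012, adjusted p = 0.0464; rho = 0.59, p = 0.0191), with r = 0.39 without the 2 farthest dogs, 0.66 within the French bulldog dogs and 0.58 within the comparison dogs. It fell as the macrophage and microglia list rose (r = -0.69, permutation p = 0.00327, adjusted p = 0.0213; rho = -0.66, p = 0.00591), with r = -0.66 without the 2 farthest dogs, -0.74 within the French bulldog dogs and -0.36 within the comparison dogs. The same direction was found for the fibroblast list (r = -0.68, adjusted p = 0.0213), the myelin list (r = -0.67, adjusted p = 0.0213) and the astrocyte list (r = -0.66, adjusted p = 0.0256), with permutation p of 0.00356, 0.00395 and 0.00522, rho of -0.65, -0.56 and -0.66 (permutation p = 0.00733, 0.0256 and 0.00696) and r of -0.42, -0.24 and -0.50 without the 2 farthest dogs. Within the French bulldog dogs r was -0.70, -0.77 and -0.68 for these 3 lists, and within the comparison dogs it was -0.63, 0.15 and -0.67. By rho, the adjusted permutation p of PDGFRA was 0.0738 with proliferation and 0.0922 with myelin, so these 2 relations passed by r only. The relation of PDGFRA with the mural list passed by rho (-0.63, adjusted permutation p = 0.0449) but not by r (-0.60, adjusted p = 0.0501).

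These relations of PDGFRA depended in part on the dog of French bulldogs 2 and 8, which had both the highest PDGFRA and low scores for myelin, mural, fibroblast and astrocyte markers. Without it, over 15 dogs, the relations with the oligodendrocyte lineage (r = 0.73, permutation p = 0.00196, adjusted p = 0.0118) and with macrophages and microglia (r = -0.63, permutation p = 0.0101, adjusted p = 0.0453) passed, and those with myelin (r = -0.54), astrocytes (-0.54), fibroblasts (-0.58) and proliferation (0.51) did not (adjusted p from 0.079 to 0.115). With French bulldog 6 kept and nothing else changed, the relations with astrocytes (r = 0.21), myelin (0.09) and proliferation (0.11) were lost, the first 2 with the sign turned, and those with the oligodendrocyte lineage (0.72), macrophages and microglia (-0.84) and fibroblasts (-0.80) passed.

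PDGFRB followed vessel markers. It rose with the mural list, which holds NOTCH3, ACTA2 and MYH11 among 11 genes (r = 0.94, rho = 0.89, permutation p = 1e-05 for both, the smallest that 100000 permutations can give, adjusted p = 0.00018). The relation had r = 0.98 within the 9 French bulldog dogs, 0.77 within the 7 comparison dogs and 0.90 without the 2 farthest dogs, and 0.0182% of the genes tested had an r with this list at least as high. PDGFRB also rose with the endothelial list (r = 0.86, rho = 0.90, permutation p = 1e-05 for both, adjusted p = 0.00018), with the fibroblast list (r = 0.81, permutation p = 0.00013, adjusted p = 0.00175; rho = 0.78, p = 0.0007) and with the macrophage and microglia list (r = 0.61, permutation p = 0.012, adjusted p = 0.0464; rho = 0.66, p = 0.00712). Without the 2 farthest dogs r was 0.84, 0.73 and 0.62. Within the French bulldog dogs it was 0.88, 0.92 and 0.74, and within the comparison dogs 0.69, 0.63 and 0.46. The last of these did not pass without the dog of French bulldogs 2 and 8 (r = 0.53, adjusted p = 0.107). With French bulldog 6 kept, those with fibroblasts (r = 0.44, adjusted p = 0.191) and with macrophages and microglia (r = 0.09, adjusted p = 0.808) were lost.

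PDGFB followed the same lists, with endothelial markers first. It rose with the endothelial list, which holds PECAM1, CDH5 and VWF among 12 genes (r = 0.90, rho = 0.94, permutation p = 1e-05 for both, adjusted p = 0.00018), with r = 0.92 within the French bulldog dogs, 0.91 within the comparison dogs and 0.88 without the 2 farthest dogs. Of the genes tested, 0.315% had an r with this list at least as high. PDGFB also rose with the fibroblast list (r = 0.78, permutation p = 0.00033, adjusted p = 0.00356; rho = 0.81, p = 0.00031), the mural list (r = 0.75, permutation p = 0.00118, adjusted p = 0.010; rho = 0.80, p = 0.00038) and the macrophage and microglia list (r = 0.63, permutation p = 0.00902, adjusted p = 0.0406; rho = 0.70, p = 0.00317). Without the 2 farthest dogs r was 0.73, 0.73 and 0.71. Within the French bulldog dogs r was 0.88, 0.87 and 0.65, and within the comparison dogs 0.46, 0.30 and 0.66. The relation with macrophages and microglia did not pass without the dog of French bulldogs 2 and 8 (r = 0.57, adjusted p = 0.079). With French bulldog 6 kept, those with fibroblasts (r = 0.30, adjusted p = 0.389) and with macrophages and microglia (r = -0.05, adjusted p = 0.883) were lost.

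Over the 16 dogs, PDGFA, PDGFC and PDGFD had no relation with an adjusted p under 0.05 to any of the 9 lists. The closest for PDGFA was with astrocyte markers (r = 0.58, permutation p = 0.0174, adjusted p = 0.0589; rho = 0.48, p = 0.0653), which was 0.32 without the 2 farthest dogs. For PDGFD it was with mural markers (r = 0.53, permutation p = 0.033, adjusted p = 0.0991; rho = 0.46, p = 0.0772) and, in the other direction, the oligodendrocyte lineage (r = -0.53, permutation p = 0.0364, adjusted p = 0.104; rho = -0.54, p = 0.0322). For PDGFC it was with fibroblast markers (r = -0.49, permutation p = 0.0515, adjusted p = 0.132; rho = -0.35, p = 0.188). Without the dog of French bulldogs 2 and 8, however, PDGFC passed with the fibroblast list (r = -0.79, permutation p = 0.00034, adjusted p = 0.00459) and the mural list (r = -0.70, permutation p = 0.00152, adjusted p = 0.0118), and PDGFD passed in the opposite direction with both (r = 0.74 for each, permutation p = 0.00154 and 0.00184, adjusted p = 0.0118). The neuron list had no relation with an adjusted p under 0.05 to any of the 6 genes, the largest being r = 0.37 with PDGFA (rho = 0.35; permutation p = 0.159 and 0.187). All of these relations share libraries and normalization.

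**Figure D4:**
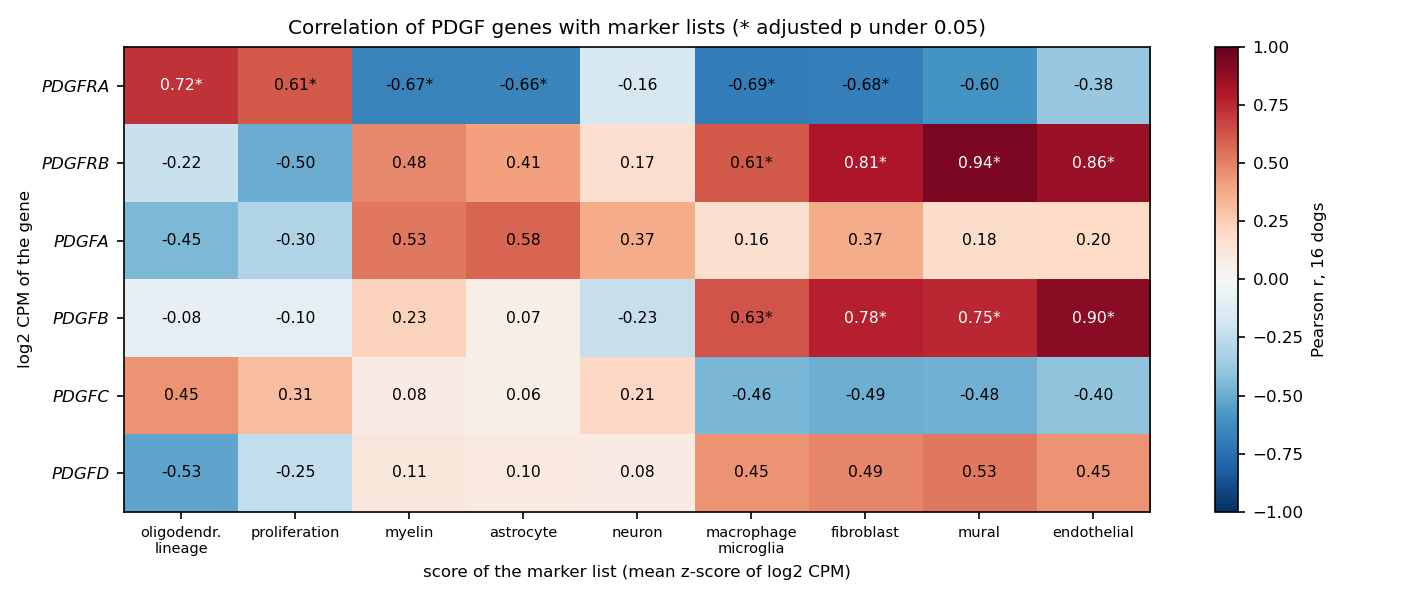
Pearson r over 16 dogs between the log2 CPM of each PDGF gene (rows) and the score of each marker list (columns), from blue at -1 to red at 1, with asterisks at an adjusted p under 0.05. PDGFRB and PDGFB share a block of high values for mural, endothelial and fibroblast markers, from 0.75 to 0.94, and PDGFRA has the opposite sign there.

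Among the 15 pairs of PDGF genes, 3 had an adjusted p under 0.05. PDGFC and PDGFD moved in opposite directions (r = -0.82, permutation p = 0.00014, adjusted p = 0.0021; rho = -0.66, p = 0.00621), with r = -0.86 within French bulldog dogs, -0.80 within comparison dogs, and -0.69 without the 2 dogs farthest from the median of PDGFC. PDGFRB and PDGFB rose together (r = 0.76, permutation p = 0.00048, adjusted p = 0.0036; rho = 0.79, p = 0.00046), with r = 0.88 within French bulldog dogs, 0.39 within comparison dogs and 0.64 without the 2 farthest. The receptors moved in opposite directions (r = -0.63, permutation p = 0.00811, adjusted p = 0.0405; rho = -0.66, p = 0.00616), with r = -0.71 within French bulldog dogs, -0.72 within comparison dogs and -0.72 without the 2 farthest. The value in the comparison dogs joins breeds that did not overlap for either receptor, in opposite directions, and it was not separated from that difference. Without the dog of French bulldogs 2 and 8, the pair of receptors had r = -0.49 (adjusted p = 0.106), the other 2 pairs held (r = -0.81 and 0.75), and 7 of 15 pairs passed, among them PDGFC with PDGFRA (r = 0.63, permutation p = 0.00902, adjusted p = 0.0338). With French bulldog 6 kept in place of that change, the pair of receptors had r = -0.26 (adjusted p = 0.474) and the other 2 pairs passed.

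The difference log2 PDGFRA minus log2 PDGFRB follows the balance of the receptors from library to library, where depth cancels. Its zero depends on the lengths of both genes, so only differences between libraries can be read from it, not which receptor was higher. It ranged from 0.24 to 7.86 in French bulldogs with a median of 3.20, from 1.51 to 2.68 in boxers and from 3.82 to 4.58 in Boston terriers. The French bulldogs lay below both other breeds (0.24 to 1.30), between them (3.01 and 3.20) or above both (5.29 to 7.86). The boxers lay below the Boston terriers.

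The genes most like each PDGF gene were ranked by Spearman's rho over the 17 libraries other than French bulldog 6, among 11300 tested genes with a symbol. For PDGFRA these were ZNF623 (rho = 0.93), a zinc finger gene, FIP1L1 (0.93), a subunit of the machinery that cuts and polyadenylates mRNA, and ZEB1 (0.92), a transcriptional repressor. For PDGFRB they were ADGRA2 (0.94), a receptor needed for vessels to enter the brain, CYYR1 (0.94) and TGFBR2 (0.93), a TGF-beta receptor. For PDGFB they were ENPP1 (0.96), CD93 (0.95), an endothelial surface receptor, and LOXL2 (0.95), an enzyme that crosslinks collagen. The levels of likeness were lower for the other ligands. They were TMEM134 (0.88), TM7SF2 (0.82) and PIGQ (0.81) for PDGFA, DNM3 (0.90), C7H1orf74 (0.84) and MSTO1 (0.84) for PDGFC, and EVC2 (0.84), NTAN1 (0.81) and LRRK2 (0.81) for PDGFD. With French bulldog 6 kept, rho was 0.58 for TMEM134, 0.60 for DNM3 and 0.55 for MSTO1, and 0.70 or higher for the other 15 genes named here. These values are descriptions of the highest among many genes and carry no test.

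ZNF623 and FIP1L1 lie on the same chromosome as PDGFRA in the RefSeq annotation of another dog assembly (UU_Cfam_GSD_1.0), which was used to group genes by chromosome, to order neighbours and to find the genes over PDGFB and PDGFD, and may differ from the annotation of the counts. This was looked at further after the values were seen. Of the 100 genes most like PDGFRA that the annotation places, 45 were on its chromosome, which carries 1.97% of the 11141 placed genes. The median rho of PDGFRA with the 220 other genes of its chromosome was 0.64, against -0.01 with genes of other chromosomes and at most 0.37 as the median of any other of 39 chromosomes. For the other 5 PDGF genes, 2 to 9 of the 100 genes most like them shared their chromosome. Those chromosomes carry 2.59% to 5.28% of the placed genes. The highest counts were 9 for PDGFRB, against 3.02%, and 7 for PDGFA, against 4.61%. The median rho with the own chromosome was between -0.08 and 0.18, the latter for PDGFA, whose chromosome ranked 2 of 39.

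The level of this chromosome was summarised in each library as the median over its 220 genes of log2 CPM minus the mean of the gene over 17 libraries. It was 0.62 and 0.64 in French bulldogs 2 and 8, 0.52 and 0.46 in French bulldogs 4 and 5, and -0.45, -0.60 and -0.78 in French bulldogs 1, 9 and 11. Among French bulldogs, the libraries highest for PDGFRA were thus the highest for its chromosome, and those low for PDGFRA were low for it. In French bulldogs 9 and 11 and boxers 3 and 4 it was the lowest of the 39 chromosomes. The lowest other chromosome there was at -0.29, -0.67, -0.12 and -0.33. In French bulldogs 2, 5 and 8 it was the highest, but by little, as the highest other chromosome was at 0.62, 0.41 and 0.63. In French bulldog 4 another chromosome was higher, at 0.56, and in French bulldogs 2 and 8 another was at -0.80. The comparison libraries followed the order of the French bulldogs less closely. Boxer 4 was at -0.68 with 760 CPM of PDGFRA and Boston terrier 6 at -0.29 with 1396 CPM. Boston terrier 7 was at 0.02 with 1677 CPM and boxer 5 at 0.22 with 835 CPM. Over 16 dogs the log2 CPM of PDGFRA and this median had r = 0.80 and rho = 0.76, given with no test since the chromosome was picked for genes that follow PDGFRA in these libraries, with r = 0.96 within the 9 French bulldog dogs, 0.29 within the 7 comparison dogs, 0.83 without the 2 farthest dogs and 0.76 without the dog of French bulldogs 2 and 8. The highest r of PDGFRA with any other chromosome was 0.62.

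**Figure D5:**
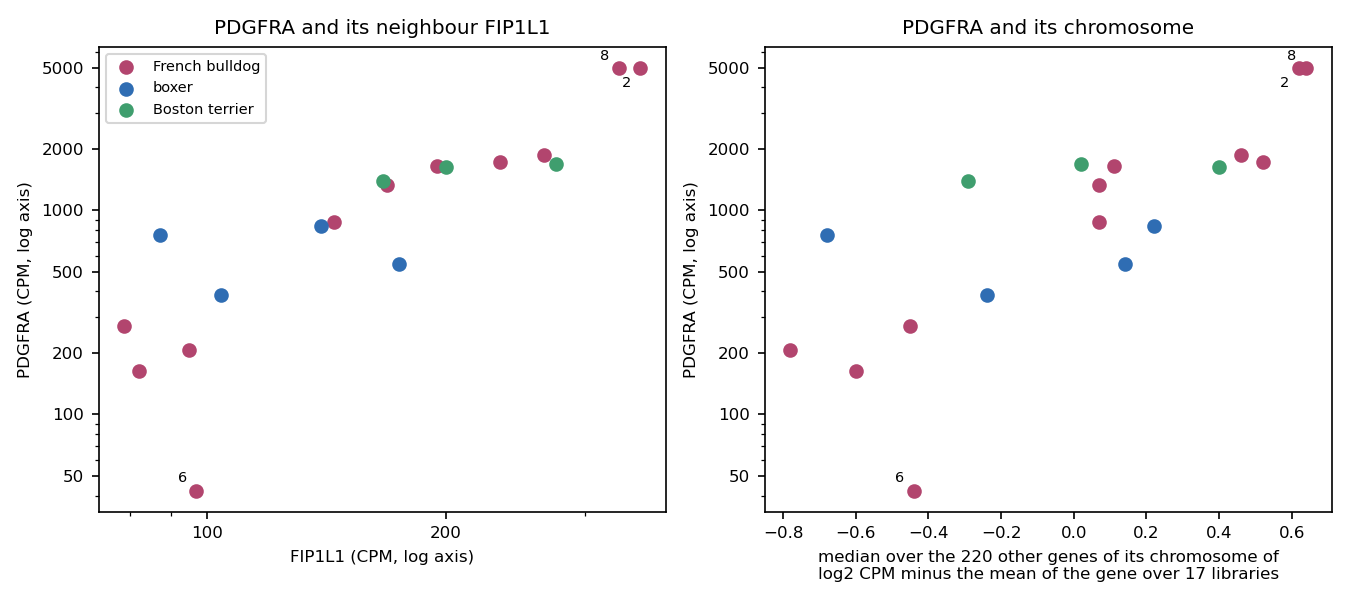
PDGFRA against its neighbour FIP1L1 (left, both as CPM on log axes) and against the median log2 deviation of the 220 other genes of its chromosome (right), with each point a library colored by breed and numbers for French bulldogs 2, 6 and 8. PDGFRA rises with both; libraries 2 and 8 are at the top right at a deviation of 0.62 and 0.64, and French bulldog 6 is far below the other libraries of like deviation.

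The nearest neighbours of PDGFRA did not all follow it. Over 16 dogs, the rho with PDGFRA was 0.91 for FIP1L1, 0.84 for LNX1, 0.79 for CHIC2 and 0.70 for SCFD2 on one side. On the other it was 0.28 for KIT and -0.34 for KDR, the nearest ones, and 0.74 for SRD5A3, 0.68 for TMEM165, 0.76 for CLOCK and 0.67 for EXOC1, farther out. KIT and KDR are receptor tyrosine kinases that are often amplified together with PDGFRA in human gliomas, and KDR is the VEGF receptor of endothelial cells. In French bulldogs 2 and 8 the mean level was 5.82 times the median of the other 16 libraries for PDGFRA, 2.84 times for CLOCK, 2.32 times for TMEM165, 2.19 times for FIP1L1, 2.17 times for SRD5A3, 2.05 times for LNX1, 1.89 times for CHIC2, 1.73 times for KIT, 1.09 times for SCFD2, 1.02 times for EXOC1 and 0.739 times for KDR. FIP1L1 had 352 and 331 CPM in these libraries against 78.7 to 276 in the other 16, CLOCK had 368 and 371 against 82.0 to 245, and SRD5A3 had 18.4 and 16.9 against 3.93 to 12.9, so these 3 genes stood above all other libraries there. The other 7 neighbours tested did not, among them KIT, with 30.1 and 32.4 CPM against 3.75 to 37.8. For TMEM165, with 47.2 and 55.9 CPM, this rested on French bulldog 6 at 62.5 CPM, since the other 15 libraries had at most 30.4 CPM. GSX2, the gene next to PDGFRA and below the filter on low counts, had 4.57 and 5.39 CPM in them and at most 1.51 in the others, and was chosen after its values were seen. Of the 10 neighbours tested, none was called between French bulldogs and the comparison group. TMEM165 had the smallest p (log2 fold change 0.99 ± 0.32 SE, adjusted p = 0.433), followed by CLOCK (0.42 ± 0.31, adjusted p = 0.620).

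The other genes of the pathway were read from lists. None of them was called between French bulldogs and the comparison group at an adjusted p under 0.05. At an unadjusted p under 0.05, used for the counts below, 10.6% of all genes tested passed in the same edgeR test. In lists of 8 to 12 genes, such counts cannot be told from that share. Of the relatives of the family, the receptors and ligands that include CSF1R, FLT1 and the VEGF genes, 0 of 10 tested had an unadjusted p under 0.05; VEGFC, a growth factor of lymphatic vessels, had a log2 fold change of 0.85 ± 0.45 (SE) and VEGFA, the main angiogenic factor, -0.88 ± 0.49 (adjusted p = 0.506 and 0.520). Of 8 genes for the cutting, binding or uptake of ligands, PCSK7, a protease that matures secreted proteins, passed an unadjusted p under 0.05 (-0.43 ± 0.14, adjusted p = 0.433), and LRP1, an endocytic receptor, was next (-0.33 ± 0.24, adjusted p = 0.625). Among the genes that carry the signal into the cell, the adaptor CRK had a log2 fold change of 0.34 ± 0.16 (adjusted p = 0.457). Of 12 negative regulators and 8 early response genes, 0 and 0 had an unadjusted p under 0.05, and their smallest adjusted p were 0.519 for SOCS3 and 0.545 for ATF3, with PTPN2 (0.588) and JUN (0.606) next. The median log2 fold change of these lists was -0.02, 0.01, 0.14, 0.05 and 0.32, against 0.04 over all genes tested.

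The marker lists were compared between the groups in the same fit. None of their genes had an adjusted p under 0.05, the counts at an unadjusted p under 0.05 were 8 of 16 for macrophages and microglia and 6 of 11 for proliferation, all higher in French bulldogs, and the other 7 lists had none, where 1158 of 16495 genes tested were higher and 586 lower at that p. Without French bulldog 6 the counts were 0 for macrophages and microglia, 2 higher for proliferation, 2 lower for the oligodendrocyte lineage and 1 higher for astrocytes. The median log2 fold change was 1.82 for macrophages and microglia (0.22 without French bulldog 6), where CD163 and MRC1 had the smallest p, and 1.16 for proliferation (0.92 without it), where CCNB2 and TOP2A did. It was -0.31 for the oligodendrocyte lineage (-0.15 without French bulldog 6), 0.74 for myelin (0.92), -0.29 for mural cells (-0.26), -0.28 for endothelium (-0.19), -0.12 for astrocytes (-0.03), -0.07 for neurons (0.10) and 0.61 for fibroblasts (0.27). All 12 endothelial and 10 of 11 mural markers had a negative log2 fold change, the direction of PDGFRB and PDGFB, and their part in those values was not tested.

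French bulldog 6 had the lowest PDGFRA (42.3 CPM, 406 counts), PDGFA (4.37 CPM) and PDGFB (3.75 CPM) of the 18 libraries and the highest PDGFC (102 CPM), while PDGFRB (35.8 CPM) and PDGFD (5.1 CPM) lay within the range of the other French bulldogs. PDGFRA was thus counted at a level well above the limit of detection in a library with 7 of 12 oligodendrocyte lineage markers at or under 3 counts. The summed level of those 12 markers was 4.48 CPM in it, against 2917 to 9857 CPM in the other libraries, and that of 16 macrophage and microglia markers was 9787 CPM, against 104 to 619 CPM. Fibroblast markers summed to 2684 CPM, against 192 to 1149 CPM. Without it the log2 fold changes between French bulldogs and the comparison group were 0.81 for PDGFRA, -0.51 for PDGFRB and 0.97 for PDGFD, with adjusted p of 0.653, 0.657 and 0.443. The unadjusted p of PDGFD was then 0.0412 in edgeR's test, and it was the only one of the 6 genes under 0.05, where 1135 genes were higher and 644 lower over the whole table.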

How the data were processed

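Tissue was FFPE, and RNA came from scrolls of each block with a stranded total RNA kit that removes ribosomal RNA. The authors trimmed reads with Trimmomatic 0.33, mapped them with HISAT2 2.1.0 and counted them with featureCounts. Their deposited table holds raw counts per gene, not normalized. The strand and multi-mapping settings are not given in the sources used here. All columns were matched to samples by name. The labels do not say which libraries were prepared or sequenced together. An effect of runs was not tested beyond the comparison libraries numbered S18 to S21 and S1 to S3, each alone. The French bulldog libraries carry numbers from S1 to S12, so S1 to S3 occur in both groups. What the numbers stand for is not stated, and an effect of such sets cannot be told apart from breed.

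Counts were normalized by TMM and tested with edgeR 4.0.16 (R 4.3.3; filterByExpr, robust quasi-likelihood F test, Benjamini-Hochberg adjustment, threshold 0.05). DESeq2 1.42.0 and limma 3.58.1 were alternatives. Log2 CPM used a prior count of 2. Correlations used 100000 permutations in Python 3.11.15 with numpy 2.4.6 and pandas 2.3.3, and figures matplotlib 3.10.9. On simulated data with the group sizes of the main test, edgeR recovered 28 of 195 genes changed 2-fold and 147 of 191 changed 4-fold. The changed genes were drawn at random from all genes tested, each with its own dispersion, and all libraries were simulated as independent. The recovery of a gene as variable as PDGFRA was not simulated. The genes and lists were chosen with earlier results of these data known. Named genes were the 6 members, the 3 genes most like each, neighbours, some markers and the 2 genes of smallest p per list. Results for some items are not reported here.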

Additional observations from a re-analysis of the deposited data

Results flagged for a closer look

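PDGFC in Boston terrier 2, with 98.3 CPM, stood apart from the other 6 libraries of the comparison group, which had 37.7 to 47.8 CPM. Its gap to the nearest library on the log2 scale was 0.753 of the range of the group. It was 1 of 12 tests of the lowest and highest library in the boxers and in the comparison group, and chance gives such a result in about 1 of 20 groups. The same library had the lowest PDGFD of the comparison group, 1.69 CPM.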

How the results depend on the processing

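In 33 alternative fits of French bulldogs against the comparison group, 0 of the 6 PDGF genes passed an adjusted p of 0.05, PDGFRB stayed negative, PDGFB negative and PDGFD positive. The number of genes called over the whole table, 1 in the main fit, was 58 with DESeq2, 2 with limma-voom and with upper quartile normalization, 5 with the numbers 1 to 7 without a block, and 0 with at least 10 counts in every library, with comparison libraries S18 to S21 or S1 to S3 alone, with French bulldogs 2 and 8 summed, summed without 6, or left out. It was 0 to 7 with each library left out, 7 without French bulldog 9 and 3 without 6. The log2 fold change of PDGFRA was -0.23 with limma-voom and -0.20 with neither French bulldog 2 nor 8, and -0.24 against Boston terriers with 2 and 8 summed; it was 0.99 with comparison libraries S18 to S21 alone and 0.31 with S1 to S3 alone. That of PDGFA, -0.04 in the main fit, was 0.02 with 2 and 8 summed, 0.14 also without 6, 0.10 with neither 2 nor 8, 0.16 with comparison libraries S1 to S3 alone, and -0.20 to 0.12 with each library left out. That of PDGFC, 0.10, was -0.03 with libraries S18 to S21 alone, -0.02 with limma-voom and -0.02 to 0.34 with each library left out. With each library left out the range was 0.34 to 0.83 for PDGFRA, -0.82 to -0.51 for PDGFRB, -0.45 to -0.02 for PDGFB and 0.67 to 1.03 for PDGFD. The causes were not tested.

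The labels number dogs in both groups from 1 to 7, but deviations of same-numbered libraries had r from -0.502 to 0.205 and 2 of 7 matched their own number best, so the numbers do not pair them. With a replicate block over these numbers 0 genes were called (5 without a block over the same libraries), and the log2 fold change was 0.13 for PDGFRA, -0.87 for PDGFRB, -0.58 for PDGFA, -0.50 for PDGFB, 0.26 for PDGFC and 0.47 for PDGFD. Over the same libraries without a block that of PDGFA was -0.56. Of the marker list relations, 15 passed with a prior count of 0.5 and with DESeq2 size factors, 12 with all 18 libraries or with no French bulldog 2 or 8, and 10 with 6 kept and 2 and 8 averaged. Of the pairs of PDGF genes, 3, 3, 2, 7 and 2 passed. The r of PDGFRA with astrocytes was 0.10 with all 18 libraries and 0.21 with 6 kept and 2 and 8 averaged, and the latter gave 0.09 for PDGFRA with myelin and -0.05 for PDGFB with macrophages and microglia. Depth limits PDGFD most, with 12 counts in its lowest library.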
